A study of Mus musculus with 9 samples.

Results

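Serotonin receptors of mouse trigeminal neurons are described here through 8 genes: Htr1a, Htr1b, Htr1d, Htr1f, Htr2b, Htr3a, Htr3b and Htr7. The genes were taken by name, and all 8 were found among the 21536 genes of the deposited count table. The table came from 9 Dropseq runs, in which ganglia of wild-type mice (strain FVB/N, both sexes) were dissociated, cleared of debris on a Percoll gradient and depleted of glia, and the droplet-captured transcriptomes (STAMPs) were sequenced. By the labels the mice were 3 to 6 weeks old, while the methods give a narrower range inside it, and cells of many mice were pooled in each run. No mouse was treated, and there is no second genotype or condition.

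The levels are those in 3855 neurons of the 6997 barcodes in the table. A barcode was taken as a neuron when it had 500 to 7500 genes, no UMI (unique transcript count) of the epithelial gene Epcam and a UMI of at least 3 of the 6 neuronal genes Tubb3, Scn9a, Snap25, Nefl, Nefm and Uchl1. Of the neurons, 253 had exactly 3 of these genes, and 320 barcodes that passed the other limits had exactly 2 and were left out. As no barcode names its run, the neurons form 1 pooled sample, no run or mouse can be compared with another, and no test between groups of neurons was made. Values are given with 95% intervals in parentheses. For the share of neurons with a UMI the interval is the exact binomial (Clopper-Pearson) interval, and for the CPM, the UMIs of a gene per 1000000 UMIs of the pooled neurons, it is the exact Poisson interval. The intervals cover counting error only, not the spread between mice or runs, and they are too narrow where a few neurons hold many of the UMIs.

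Serotonin, released in the dura and skin by platelets, mast cells and nerve fibres, acts on sensory neurons through receptors of several families. Htr1a, Htr1b, Htr1d and Htr1f code for receptors that couple to inhibitory G proteins, Htr2b for a receptor that couples to phospholipase C and Htr7 for a receptor that raises cyclic AMP. Htr3a and Htr3b code for subunits of a cation channel gated by serotonin, in which Htr3b needs Htr3a to form a working channel. Triptans, the drugs for acute migraine, are agonists at the products of Htr1b and Htr1d, several of them also act at that of Htr1f, and lasmiditan acts mainly at Htr1f. Trigeminal neurons release CGRP, the peptide made from Calca, and CGRP is itself a target of migraine drugs, so the overlap of Htr1b, Htr1d and Htr1f with Calca was counted.

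The 6 receptors that couple to G proteins share a run of coding sequence, and it is shown to let the family likeness be seen beside the separate levels below. Each line gives 30 bases of the coding strand, 5′ to 3′, from the annotated transcripts of the GRCm38 assembly, and the capitals mark the codons for the Asp-Arg-Tyr motif at the inner end of the third membrane helix, which G protein-coupled receptors hold in common.
Htr1b: atcgccctgGACCGCTACtgggccatcacc
Htr1d: attgctctgGACAGATACtgggccatcacc
Htr1f: atagccttgGATAGGTACcgcgccatcaca
Htr1a: atcgcgctaGACAGGTACtgggcaatcacc
Htr7: atcagcatcGACAGGTACcttgggatcacc
Htr2b: atttccctgGACCGCTATatagccatcaaa
Against Htr1d, 26 of the 30 bases were the same in Htr1b, 25 in Htr1a, 22 in Htr1f, 20 in Htr2b and 18 in Htr7. The stretches lie in coding exons at chr9:81632109-81632138 (Htr1b, minus strand), chr4:136442846-136442875 (Htr1d, plus strand), chr16:64926550-64926579 (Htr1f, minus strand), chr13:105444641-105444670 (Htr1a, plus strand) and chr1:86102501-86102530 (Htr2b, minus strand). That of Htr7 runs over an exon junction and spans chr19:35970049-36056719 on the minus strand. Over whole transcripts, none of the 28 pairs of the 8 receptors shared a word of 25 bases, so a read of that length or more can match only 1 of them exactly.

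The genes differ in build. Htr1a is 1 exon (chr13:105443639-105448122), Htr1b has 2 exons (chr9:81628291-81633828), Htr1d has 2 (chr4:136423524-136444398) and Htr1f has 3 (chr16:64924729-65105854). Htr2b (chr1:86099026-86111970) and Htr7 (chr19:35958734-36057507) have 4 exons each. Htr3a (chr9:48899213-48911099) and Htr3b (chr9:48935008-48964990) have 9 exons each and stand 23.9 kb apart on the same strand. Calca lies at chr7:114631478-114636357. Genes on the opposite strand overlap Htr1b (D430036J16Rik), Htr2b (Psmd1) and Htr3a (Gm32335, not among the genes analysed here). The sources used here do not say whether the counting used strand, so without strand reads from the bases that such a pair shares cannot be told apart.

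Depth per neuron ran from 1000 to 55655 UMIs (median 3014, quartiles 1744 and 6047), and the median number of genes was 1755. Receptor UMIs were sparse. In all neurons, Htr1b had a UMI in 391 (10.1%, 9.21 to 11.1) and Htr3a in 279 (7.24%, 6.44 to 8.10). Htr1d was seen in 187 (4.85%, 4.19 to 5.58), Htr1a in 152 (3.94%, 3.35 to 4.61) and Htr3b in 129 (3.35%, 2.80 to 3.96). Htr1f was seen in 65 (1.69%, 1.30 to 2.14), Htr7 in 55 (1.43%, 1.08 to 1.85) and Htr2b in 1 neuron (0.0259%, 0.000657 to 0.144). A UMI of any of the 8 was found in 963 neurons (25%), and of any of the triptan targets Htr1b, Htr1d and Htr1f in 604 (15.7%).

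Most of these neurons held 1 UMI of the receptor. That was so for 77.5% of the neurons with Htr1b, 75.4% of those with Htr1d, 66.2% of those with Htr1f, 82.9% of those with Htr1a and 83.6% of those with Htr7. Htr3a differed: 48.4% of its neurons held 1 UMI, and the highest neuron held 48. Shares moved with depth. Of the 964 shallowest neurons 4.36% had Htr1b, and of the 964 deepest 18.7%, while the CPM of Htr1b was 33.3 in the first and 21.9 in the second. For this reason the report leads with the CPM, and shares are also given after each neuron was thinned at random to 1000 UMIs. The CPM moved with depth as well, and not always down. From the shallowest to the deepest of these neurons Htr3b rose from 3.10 to 11.7 CPM, Htr1d from 9.29 to 14.1 and Htr3a from 31.0 to 41.0. Htr1a, Htr1f and Htr7 fell. Thinned shares were 2.75% for Htr1b, 2.54% for Htr3a, 0.856% for each of Htr1a, Htr1d and Htr3b, 0.571% for Htr1f and 0.311% for Htr7.

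Free RNA gives some barcodes a UMI of a gene their cell does not express. In 230 glia-like barcodes (median 1456 UMIs) none of the 8 receptors was seen, which allows a share of up to 1.30%. In 380 red cell-like barcodes (median 1342 UMIs) Htr1d and Htr3a were each seen in 1 barcode (0.263%, 0.00666 to 1.46) and the others in none, which allows up to 0.789%. Htr2b was the exception to a neuronal pattern: it had 1 UMI in the neurons and 3 UMIs in 2 of 104 endothelial-like barcodes. Its level in neurons was not detectable above that of free RNA, and it is not followed further.

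The neurons were placed into groups by the first rule they met. These were, in order, at least 2 UMIs of Trpm8 (the menthol and cold channel; 244 neurons), at least 2 of Mrgprd (a marker of nonpeptidergic nociceptors; 379), at least 1 of Mrgpra3 (a chloroquine receptor of itch neurons; 49), at least 2 of Nppb (an itch peptide; 57) and at least 1 of Cd34 (320). Then came at least 5 of Nefh (the heavy neurofilament of large myelinated neurons) with no Trpv1 (450), and at least 5 of Calca with a UMI of Trpv1 (the capsaicin channel; 916). The neurons left over were split into 419 with at least 5 UMIs of Calca and 1021 with fewer. Median depth ran from 1785 UMIs in the last of these to 5836 in the Cd34 group. The 1021 leftover neurons with little Calca also had the highest summed level of 9 glia markers, 12106 CPM against 241 to 2301 in the other groups, and its part in the values of that group was not tested. Of all neurons, 349 (9.05%) met more than 1 rule, 149 of them in the Trpm8 group, and values that rest on them are pointed out. In addition, 6 barcode sequences occurred 2 times in the table, and 11 of their 12 columns were neurons. Levels are called apart below where their intervals do not overlap.

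**Figure D1:**
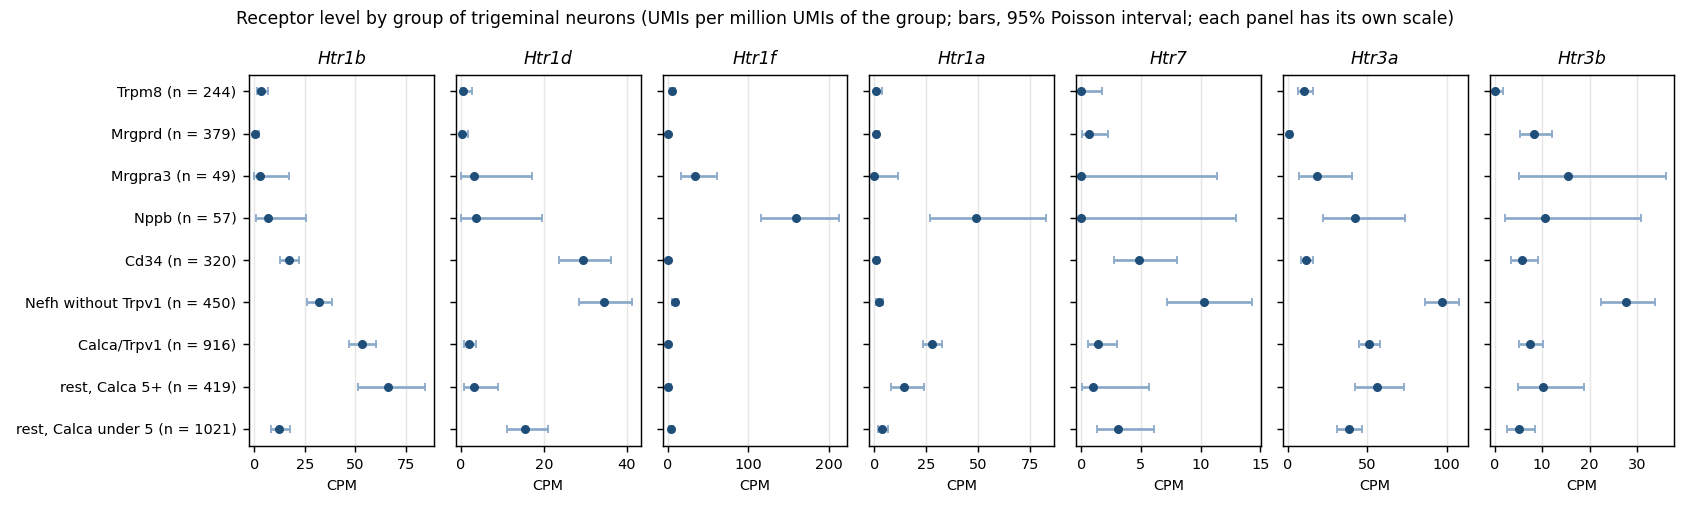
Level of 7 receptors in 9 groups of trigeminal neurons. The horizontal axis is CPM (UMIs of the gene per 1000000 UMIs of the group), with a scale of its own in each panel, points are pooled levels and bars 95% Poisson intervals. Htr1b is highest where Calca is high, Htr1d in the Cd34 and Nefh groups, Htr1f and Htr1a in the Nppb group, and Htr7, Htr3a and Htr3b in the Nefh group.

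Htr1b was highest in the neurons with most Calca. Its level was 66.4 CPM (51.3 to 84.6) in the leftover neurons with Calca and 53.4 (47.1 to 60.3) in the Calca/Trpv1 group, and these did not differ beyond their intervals. The Nefh group followed at 31.8 (26.1 to 38.4), apart from both, and the Cd34 group at 17.1 (12.8 to 22.4), apart from the Nefh group. The leftover neurons with little Calca had 12.4 (8.47 to 17.5), the Nppb group 7.04 (2 UMIs in 1 of 57 neurons), the Trpm8 group 3.30 (1.33 to 6.80), the Mrgpra3 group 3.09 (1 UMI) and the Mrgprd group 0.611 (2 UMIs in 379 neurons). As shares, 183 of 916 neurons of the Calca/Trpv1 group had Htr1b (20.0%, 17.4 to 22.7), against 2 of 379 of the Mrgprd group (0.528%, 0.0640 to 1.89). Thinned to 1000 UMIs the shares were 5.35% (3.98 to 7.01) and 0 of 379 (up to 0.792%). The Calca/Trpv1 group held 46.8% of all neurons with Htr1b. Without the neurons that met more than 1 rule the level in the Cd34 group was 12.0 CPM.

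D430036J16Rik, annotated as antisense to Htr1b, had a profile much like it. The exons of the pair overlap over 852 of the 4724 exon bases of Htr1b. D430036J16Rik was seen in 305 neurons, in 26.3% (22.0 to 31.0) of those with Htr1b and 5.83% of those without. Its level was 68.5 CPM in the leftover neurons with Calca, 46.2 in the Calca/Trpv1 group, 17.1 in the Nefh group and 0.611 in the Mrgprd group. How much of either gene's level came from reads of the other was not tested.

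Htr1d was highest in other groups than Htr1b, though Htr1b was not apart from it in the Nefh group (31.8 CPM, 26.1 to 38.4). The level of Htr1d was 34.4 CPM (28.5 to 41.3) in the Nefh group and 29.4 (23.7 to 36.1) in the Cd34 group. These did not differ beyond their intervals. In the leftover neurons with little Calca it was 15.5 (11.1 to 21.1), apart from both. In the Calca/Trpv1 group it was 1.85 (0.845 to 3.51), from 9 UMIs in 6 of 916 neurons. The other groups had 0.306 to 3.52 CPM, each from 1 to 3 UMIs. As shares, 66 of 320 neurons of the Cd34 group (20.6%, 16.3 to 25.5) and 75 of 450 of the Nefh group (16.7%, 13.3 to 20.4) had Htr1d, against 0.655% (0.241 to 1.42) of the Calca/Trpv1 group. Thinned, these were 2.5% (1.09 to 4.87), 2.89% (1.55 to 4.89) and 0 of 916 (up to 0.328%). The Nefh and Cd34 groups held 40.1% and 35.3% of all neurons with Htr1d. The neurons with Htr1d were deep, with a median of 8407 UMIs against 5381 for those with Htr1b and 4997 for those with Htr1f.

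Htr1f was highest in the Nppb group, at 158 CPM (116 to 212). There 25 of 57 neurons had a UMI (43.9%, 30.7 to 57.6), 15.8% (7.48 to 27.9) after thinning, and they made up 38.5% of all neurons with Htr1f. The next level, 34.0 CPM (17 to 60.9) in the Mrgpra3 group, came from 11 UMIs of which 10 were in 1 neuron, and without the neurons that met more than 1 rule it was 0. The Nefh group had 8.54 CPM (5.72 to 12.3; 19 of 450 neurons), and the Trpm8 group 4.71 (8 of 244), which also went to 0 without the neurons that met more than 1 rule. Htr1f was not seen in the 320 neurons of the Cd34 group (up to 0.938%) or in the 419 leftover neurons with Calca (up to 0.716%). It was seen in 2 of the 916 of the Calca/Trpv1 group, at 0.411 CPM (0.0497 to 1.48).

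Some of the neurons with Htr1f shared the genes of Nppb itch neurons. Among the 65, Nppb was seen in 30 (46.2%, 33.7 to 59.0), against 1.72% of neurons without Htr1f. Sst, which codes for somatostatin, was seen in 28 (43.1%, 30.8 to 56.0, against 1.16%). Il31ra and Osmr, the subunits of the receptor for the itch cytokine IL-31, were seen in 22 (33.8% against 1.13%) and 26 (40.0% against 4.35%). Cysltr2, a leukotriene receptor, was seen in 13 (20.0% against 1.19%) and Npy2r in 20 (30.8% against 2.96%). At least 1 of Nppb, Sst, Il31ra and Cysltr2 was found in 31 (47.7%, 35.1 to 60.5, against 3.4%), and the others had none of them. Mrgprd was seen in 3 (4.62% against 13.8%) and Mrgpra3 in 2 (3.08% against 1.53%). Of the 65, 19 were in the Nefh group, which had 2 UMIs of Nppb, 3 of Sst and 0 of Il31ra. Inside the Nppb group, the 41 neurons without a UMI of Calca had 231 CPM of Htr1f (161 to 321), and the 16 with one had 75.5 (36.2 to 139). This was 1 of 4 splits of the group, chosen after the values had been seen, and by Sst (190 with and 47.8 without), Il31ra (188 and 106) and Trpv1 (148 and 180) the levels of Htr1f were not apart.

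Calca separated the triptan targets. Of the neurons with Htr1b, 328 of 391 had a UMI of Calca (83.9%, 79.9 to 87.4) and 282 had at least 5 (72.1%, 67.4 to 76.5). Among neurons without Htr1b these shares were 58.4% and 38.3%. Of the neurons with Htr1d, 80 of 187 had a UMI of Calca (42.8%, 35.6 to 50.2) and 22 had at least 5 (11.8%, 7.52 to 17.3), against 61.9% and 43.3% of neurons without Htr1d. Of the neurons with Htr1f, 24 of 65 had a UMI of Calca (36.9%, 25.3 to 49.8) and 2 had at least 5 (3.08%, 0.375 to 10.7), against 61.4% and 42.4%. Thus neurons with Htr1b had Calca more often than the other neurons, and those with Htr1d or Htr1f less often, with intervals apart at both limits.

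A UMI of Calca alone is weak evidence for a peptidergic neuron. Calca had a UMI in 50 of the 380 red cell-like barcodes (13.2%, 9.93 to 17) and 26 of the 230 glia-like ones (11.3%, 7.52 to 16.1), 9.47% and 5.65% after thinning. Thinned to 1000 UMIs, 89 of 106 neurons with Htr1b had Calca (84.0%, 75.6 to 90.4), 4 of 33 with Htr1d (12.1%, 3.4 to 28.2) and 3 of 22 with Htr1f (13.6%, 2.91 to 34.9), against 47.2%, 48.6% and 48.4% of neurons without each. The thinned shares for Htr1d and Htr1f were not apart from that of the red cell-like barcodes. Pooled levels of Calca were 576 CPM in neurons with Htr1d and 383 in those with Htr1f. The red cell-like barcodes had 108 (82.4 to 138), neurons with Htr1b 6926 and neurons without Htr1b 3477. Of the neurons with Htr1f, 41 had no UMI of Calca and 22 had 1 to 4. Only 1 had 20 to 99 and 1 had 100 or more, and the pooled level without them was not tested. Leaving out neurons of over 20000 UMIs, 29.0% (21.6 to 37.3) of the neurons with Htr1d had a UMI of Calca. Of the 46 neurons with at least 2 UMIs of Htr1d, 56.5% (41.1 to 71.1) had one, which was not apart from the share without Htr1d.

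**Figure D2:**
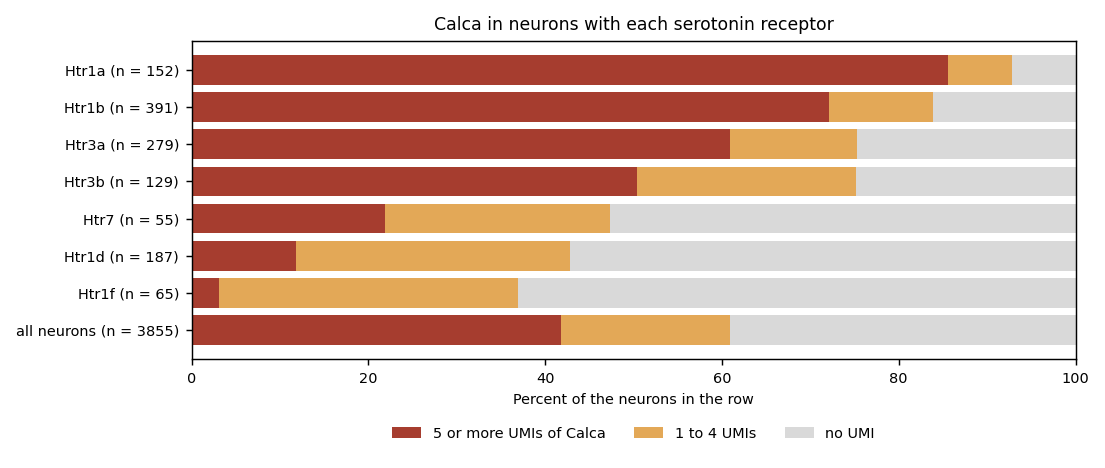
Calca in the neurons with a UMI of each receptor. Each bar is 100% of the neurons in its row, divided into those with at least 5 UMIs of Calca, 1 to 4 UMIs and none, and the lowest bar shows all 3855 neurons. At least 5 UMIs were found in 85.5% of neurons with Htr1a and 72.1% with Htr1b, but 11.8% with Htr1d and 3.08% with Htr1f.

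Seen from Calca, Htr1b was found in 282 of the 1610 neurons with at least 5 UMIs of Calca (17.5%, 15.7 to 19.5) and in 4.86% (4.0 to 5.83) of the 2245 with fewer. Htr1d was found in 1.37% (0.858 to 2.06) and 7.35% (6.30 to 8.51), and Htr1f in 0.124% (0.0150 to 0.448) and 2.81% (2.16 to 3.58). At least 1 of the 3 was seen in 295 of the 1610 neurons (18.3%, 16.5 to 20.3), and 282 of these 295 had Htr1b (95.6%). The share of Htr1d in the 1610 neurons lay within the interval for red cell-like barcodes given above, and that of Htr1f under their limit. These shares are not at equal depth. The red cell-like barcodes had a median of 1342 UMIs. Neurons with 5 to 19, 20 to 99 and 100 or more UMIs of Calca had medians of 1944.5, 3098 and 10567.

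Levels were also compared over the level of Calca, where only Htr1d changed in the same direction throughout. Neurons were sorted by the percent of their UMIs that was Calca: none (1505 neurons), up to 0.1% (713), 0.1 to 0.5% (339), 0.5 to 1% (297), 1 to 2% (895) and over 2% (106). Htr1b stood at 11.3, 10.3, 21.8, 55.9, 58.4 and 52.8 CPM in these bins. Htr1d stood at 21.5, 15.4, 10.9, 3.21, 0.239 and 0 CPM. Htr1f stood at 11.8 and 4.77 CPM in the lowest bins and at 0, 0.643, 0 and 2.78 CPM in the others, each from 0 or 1 UMI. From the lowest bin to that of 1 to 2% the intervals of each gene were apart, with Htr1b higher and Htr1d and Htr1f lower.

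**Figure D3:**
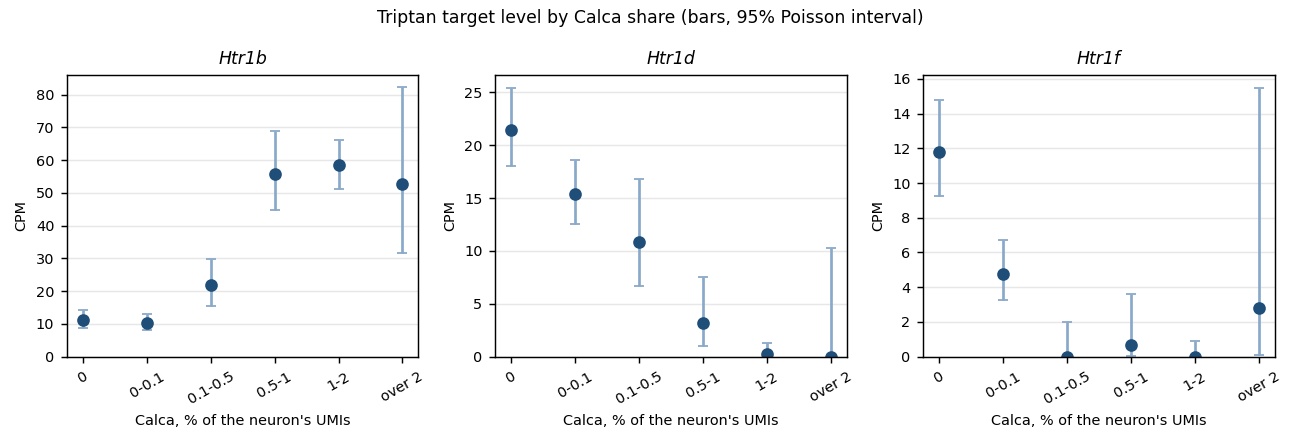
Level of Htr1b, Htr1d and Htr1f by the Calca share of the neuron. The horizontal axis is Calca as a percent of the neuron's UMIs in 6 bins, the vertical axis is CPM, and bars are 95% Poisson intervals. Htr1b is at 52.8 to 58.4 CPM in the bins over 0.5%, while Htr1d goes from 21.5 to 0.239 between no Calca and 1 to 2%.

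Few neurons held more than 1 triptan target. Htr1b alone was seen in 358 neurons, Htr1d alone in 150 and Htr1f alone in 59. Htr1b and Htr1d were seen together in 33, of which 2 also had Htr1f, Htr1d and Htr1f without Htr1b in 4, and Htr1b and Htr1f without Htr1d in none. The 31 neurons with Htr1b and Htr1d alone were deep, with a median of 20567 UMIs, and 9 of them had at least 5 UMIs of Calca. Of neurons with Htr1d 17.6% (12.5 to 23.9) had Htr1b, against 9.76% (8.82 to 10.8) of those without, but among neurons of at most 20000 UMIs in 10.9% (6.21 to 17.3) and 9.10% (8.18 to 10.1), which did not differ beyond their intervals. Htr1b was seen in 2 of the 65 neurons with Htr1f (3.08%, 0.375 to 10.7), against 10.3% of those without, and these intervals overlapped. Among neurons of at most 20000 UMIs it was seen in 0 of 54 (0 to 6.60) and 9.31% (8.38 to 10.3), which were apart. Without the neurons that met more than 1 rule, the shares were 1.89% (0.0478 to 10.1) and 10.5% (9.51 to 11.6), which overlapped.

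Inside the Nefh group, the triptan targets differed by other genes. This group was divided by a UMI of each of 5 genes, Calca, S100b (a calcium-binding protein of large neurons), Ntrk2 (the BDNF receptor), Tac1 and Adcyap1, splits that were chosen after the values had been seen. Intervals were apart in 3 of the 5 for Htr1d, 2 for Htr1b and none for Htr1f. Htr1d was 49.9 CPM (38.7 to 63.4) in the 133 neurons with Ntrk2 and 24.3 (18.1 to 32.1) in the 317 without, while Htr1b was 17.9 (11.5 to 26.6) and 40.9 (32.6 to 50.6). By Calca the order was opposite: Htr1b was 40.0 (31.8 to 49.5) in the 190 neurons with a UMI of Calca and 18.9 (12.3 to 28.0) in the 260 without, and Htr1d was 27.0 (20.4 to 35.0) and 46.2 (35.4 to 59.4). Htr1d was also higher with S100b, 37.1 (30.6 to 44.5) against 6.73 (0.815 to 24.3), while Htr1b was 32.9 and 20.2 with overlapping intervals. By Tac1, Htr1b was 31.4 with and 32.2 without and Htr1d 28.9 and 39.5, and by Adcyap1 Htr1b was 31.6 and 31.9 and Htr1d 34.9 and 34.2, none of them apart. Neurons with a UMI of a splitting gene were deeper than those without, with medians of 5147 and 3613 UMIs for Ntrk2 and 5719 and 3332 for Calca.

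Htr1a was also found with Calca. A UMI of Calca was found in 92.8% (87.4 to 96.3) of its 152 neurons and at least 5 in 85.5% (78.9 to 90.7), against 59.7% and 40.0% without Htr1a, and thinned to 1000 UMIs 24 of 33 neurons had a UMI (72.7%, 54.5 to 86.7). The level of Calca was 11461 CPM in neurons with Htr1a and 3593 in those without. By group, Htr1a was 49.3 CPM (27.0 to 82.7) in the Nppb group, from 14 UMIs in 10 of 57 neurons, 27.7 (23.2 to 32.8) in the Calca/Trpv1 group and 14.3 (7.82 to 24.0) in the leftover neurons with Calca. Neighbours in this order overlapped. The remaining groups had 0 to 3.48 CPM, all apart from these but the Mrgpra3 group, whose 49 neurons had no UMI (up to 9.28 CPM). The Calca/Trpv1 group held 107 of the 152 neurons (70.4%). Of the neurons with Htr1b 10.7% (7.85 to 14.2) had Htr1a, and 3.18% (2.62 to 3.81) of those without did. The median depth of the 42 neurons that held both was 9797 UMIs. Among neurons of at most 20000 UMIs these shares were 10.1% (7.09 to 13.8) and 3.12% (2.55 to 3.76).

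Htr7 had the fewest UMIs of the genes followed here, 68 in 55 neurons. It was 10.3 CPM (7.18 to 14.3) in the Nefh group, 4.85 (2.71 to 7.99) in the Cd34 group and 3.10 (1.34 to 6.10) in the leftover neurons with little Calca, and the Nefh group was apart from the last of these but not from the Cd34 group. It was 1.44 (0.578 to 2.96) in the Calca/Trpv1 group. No UMI was seen in the Trpm8 group (up to 1.41 CPM), the Mrgpra3 group (up to 9.28) or the Nppb group (up to 10.6). Its neurons had Htr1d more often than the others did: Htr1d was seen in 16 of the 55 (29.1%, 17.6 to 42.9; 8.56% of all neurons with Htr1d) and in 4.50% (3.86 to 5.21) of the neurons without Htr7. Among neurons of at most 20000 UMIs these shares were 27.9% (15.3 to 43.7) and 3.47% (2.90 to 4.12).

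The channel subunits Htr3a and Htr3b were both highest in the Nefh group, at 96.9 CPM (86.7 to 108) and 27.7 (22.4 to 33.9), with 84 and 52 of 450 neurons. For Htr3b the Nefh group was not apart from the Mrgpra3 group (15.5, 5.02 to 36.1) or the Nppb group (10.6, 2.18 to 30.9). These came from 5 and 3 UMIs, and the remaining groups were apart. For Htr3a the leftover neurons with Calca (56.2, 42.3 to 73.1) and the Calca/Trpv1 group (51.1, 45.0 to 57.9) followed, both apart from the Nefh group. The leftover neurons with little Calca had 38.3 (31.1 to 46.6). The Nppb group had 42.3 (21.8 to 73.8), from 12 UMIs of which 10 were in 1 neuron, and 4.93 without the neurons that met more than 1 rule. The Mrgpra3 group had 18.6, the Cd34 group 11.6, the Trpm8 group 10.4 and the Mrgprd group 0.917, from 3 UMIs in 2 of 379 neurons. Without the neurons that met more than 1 rule these were 0, 1.71, 3.96 and 0. The 5 neurons with most UMIs of Htr3a held 17% of all its UMIs. Over the Nefh group the mean of the CPM of each neuron was 77.7 for Htr3a and 20.1 for Htr3b.

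Htr3b was found without Htr3a in the Mrgprd group. There 22 of 379 neurons had Htr3b (5.80%, 3.67 to 8.66; 8.25 CPM, 5.44 to 12.0), 2 had Htr3a, and both of those were among the 22. Without neurons that met more than 1 rule, 3.94% of the 279 left had Htr3b and none had Htr3a. In the Nefh group 34 of the 52 neurons with Htr3b also had Htr3a (65.4%, 50.9 to 78.0), apart from the 9.09% (1.12 to 29.2) in the Mrgprd group, and in the Calca/Trpv1 group 15 of 19 did (78.9%, 54.4 to 93.9). Htr3b was not seen in the 244 neurons of the Trpm8 group (up to 1.23%), 12 of which had Htr3a. Over all neurons, Htr3a was seen in 66 of 129 neurons with Htr3b (51.2%, 42.2 to 60.1) and in 5.72% (4.99 to 6.51) of those without. Htr1b and Htr3a were seen together in more neurons, 69, which were 17.6% of those with Htr1b and 24.7% of those with Htr3a. Among neurons of at most 20000 UMIs the shares of Htr3a with and without Htr3b were 48.3% (37.4 to 59.2) and 5.52% (4.79 to 6.32).

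**Figure D4:**
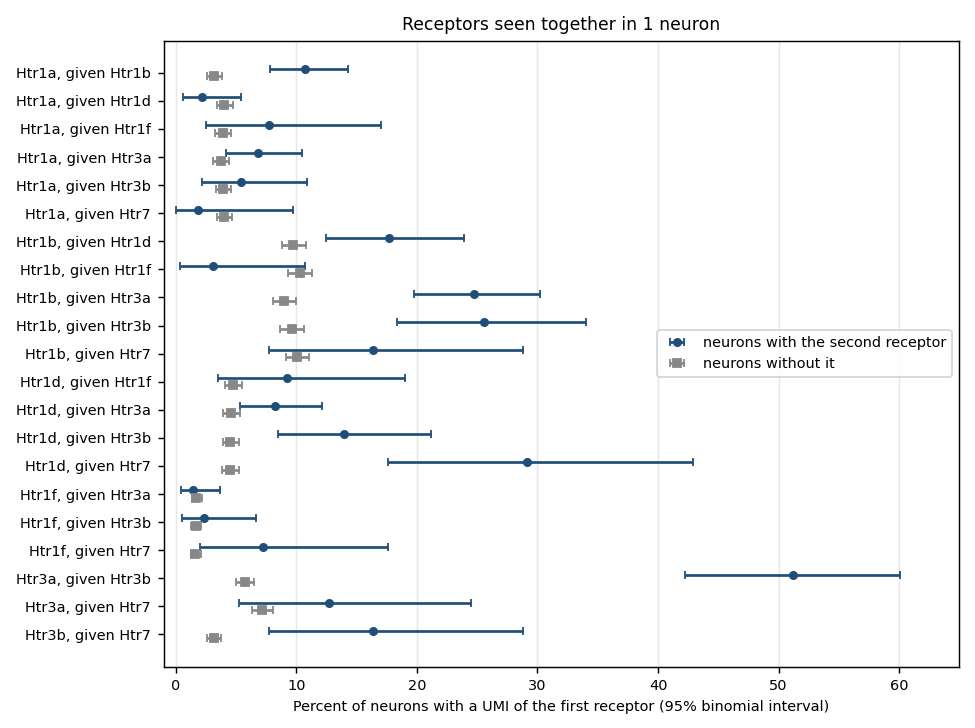
Receptors seen together. For each of 21 pairs, the horizontal axis gives the percent of neurons with a UMI of the first receptor, among neurons with the second (circles) and without it (squares), with 95% binomial intervals and without correction for depth. Htr3a with Htr3b (51.2% against 5.72%) and Htr1d with Htr7 (29.1% against 4.50%) stand farthest apart.

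The Calca/Trpv1 group was divided by a UMI of each of 13 genes, several of them in the paper's list of marker genes from these data. Intervals were apart in 7 of the 13 splits for Htr1b, 10 for Htr3a, 2 for Htr3b and none for Htr1a, Htr1d, Htr1f and Htr7. All splits divide the same neurons, so these counts may hold the same difference more than once. Neurons with the splitting gene were deeper in each split, for Adcyap1 with medians of 3985 and 1924 UMIs. Htr1b was higher with Kit (the stem cell factor receptor; 63.5 CPM against 43.0), Dcdc2a (77.9 against 48.1) and Cyp1b1 (66.5 against 42.4). It was lower with Trpa1 (the mustard oil channel; 41.7 against 68.0), Gpr83 (24.9 against 58.0), Mfap5 (20.7 against 60.0) and Adcyap1 (the peptide PACAP; 49.6 against 95.5).

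Trpa1, Gpr83, Mfap5 and Adcyap1 were also apart for Htr3a, in the same direction. Htr3a in this group was 116 CPM (101 to 133) in the 219 neurons with S100b and 13 (9.30 to 17.7) in the 697 without. It was also higher with Nefh (61.6 against 22.3), Fam150b (102 against 38.4) and Ptger1 (a prostaglandin E2 receptor; 68.6 against 40.3). It was lower with Trpa1 (25.5 against 83.3), Mfap5 (14.6 against 58.5) and Gpr83 (1.46 against 59.2), and it was not seen in the 116 neurons with Sstr2 (a somatostatin receptor), against 92 of 800 without it (61.2 CPM). With Adcyap1 it was 43.4 against 138, and with Tac1 (substance P) 48.6 against 258, the last from 17 neurons. Htr3b was 18.9 CPM (13.1 to 26.4) with S100b and 0.651 (0.0788 to 2.35) without. The neurons with S100b had a median of 5552 UMIs and those without had 3136. In the Cd34 group the same split gave 47.2 CPM of Htr3a with S100b (32.3 to 66.6; 8 of 45 neurons) and 1.65 without (0.451 to 4.24; 3 of 275), a split chosen after the values had been seen. It rests on neurons that met more than 1 rule, without which the level of Htr3a over the whole Cd34 group was 1.71 CPM.

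**Figure D5:**
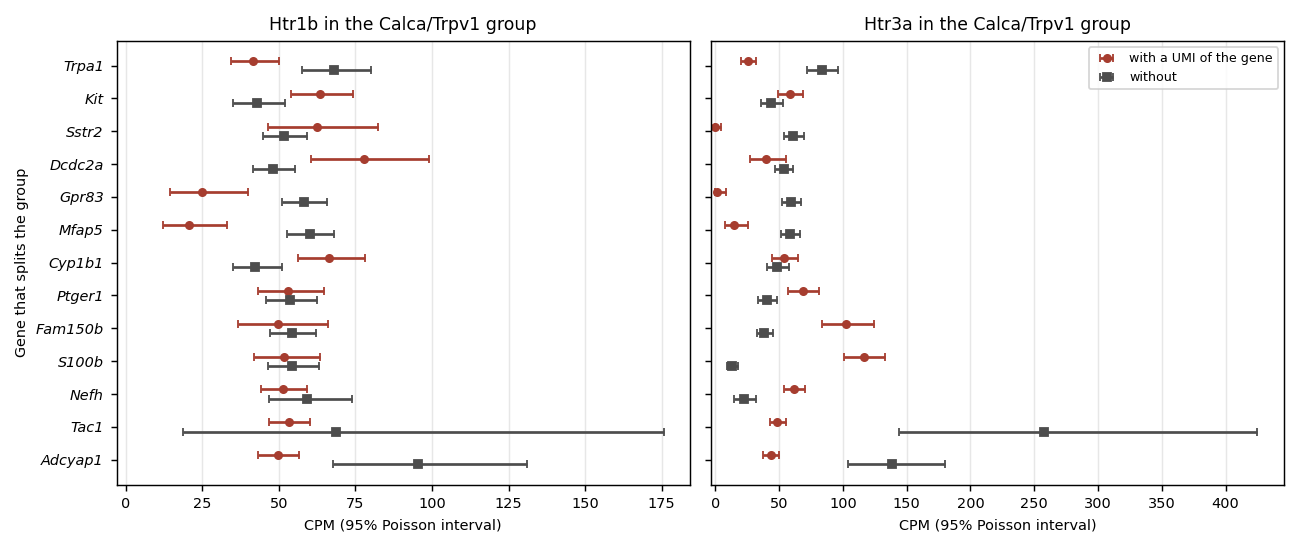
Htr1b and Htr3a in the Calca/Trpv1 group, divided by 13 other genes. The horizontal axis is CPM with 95% Poisson intervals, circles are neurons with a UMI of the gene named at the left and squares are those without. Htr3a is at 116 with S100b and 13 without, and is at 0 with Sstr2, while Htr1b is lower with Trpa1, Gpr83, Mfap5 and Adcyap1 and higher with Kit, Dcdc2a and Cyp1b1.

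The groups were also compared by how many receptors passed a fold of 2 against all other neurons, over genes with at least 50 UMIs. Htr2b fell below that limit, so 7 of the 8 receptors were tested, among 12114 genes, with ratios on the scale of pooled counts plus 0.5. A gene with fewer than 50 UMIs in all other neurons could enter a group's count only by being high there, and a gene with no UMI in a group was also compared at the limit of 3 counts. Genes of the first kind, and genes of the second that did not pass the fold at that limit, are pointed out in the counts, which are descriptions. In the Nefh group 4 of 7 were higher (Htr1d, Htr3a, Htr3b, Htr7; 5.59% of all genes) and 1 lower (Htr1a; 9.53% of all genes), with a median log2 ratio of 1.82 against -0.09 over all genes. Htr7, with 33 UMIs in all other neurons, was of the first kind. In the Calca/Trpv1 group 2 were higher (Htr1a, Htr1b; 5.46%) and 3 lower (Htr1d, Htr1f, Htr7; 9.36%), with a median of -0.50 against -0.01. In the leftover neurons with Calca 1 was higher (Htr1b; 3.92%) and 3 lower (the same 3; 8.73%), with a median of 0.12 against -0.02. Of these, Htr1f had no UMI and did not pass the fold at its limit. Htr7 had 1 UMI, with an interval (0.0259 to 5.69 CPM) that held its 3.36 CPM in all other neurons.

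In the Nppb group 2 were higher (Htr1a, Htr1f; 8.38%) and 2 lower (Htr1b, Htr1d; 14.7%), with a median of 0.18, or 0.32 with the 1 gene not seen set to its upper limit of 3 counts, against -0.02. In the Cd34 group 1 was higher (Htr1d; 4.33%) and 3 lower (Htr1a, Htr1f, Htr3a; 12.4%), with a median of -0.82 against -0.05. In the Mrgpra3 group 1 was higher (Htr1f, from 10 UMIs in 1 neuron and 1 in another; 7.67%) and 4 lower (Htr1a, Htr1b, Htr1d, Htr7; 16.3%), with a median of -1.10, or 0.05 with the 2 genes not seen at their limits, against -0.06. Htr1a and Htr7 had no UMI there and did not pass the fold at their limits, and Htr1f was at 0 without the neurons that met more than 1 rule. Htr1d had 1 UMI in each of the Mrgpra3 and Nppb groups, and Htr1b had 1 and 2. The intervals of Htr1d there (0.0783 to 17.2 and 0.0892 to 19.6 CPM) held its levels in all other neurons (12.8 and 12.7). In the Trpm8 group none was higher (3.78%) and 6 were lower (15.8%), all but Htr1f, with a median of -3.05, or -2.95 with 2 genes at their limits, against -0.12. In the Mrgprd group none was higher (5.29%) and 6 were lower (17.9%), all but Htr3b, with a median of -3.77 against -0.14. In the leftover neurons with little Calca none was higher (6.12%) and 3 were lower (Htr1a, Htr1b, Htr3b; 2.44%), with a median of -0.56 against 0.03.

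Of 6 serotonin receptors outside the 8, Htr5b had a UMI in 239 neurons and was highest in the Cd34 group, at 44.3 CPM (37.2 to 52.3) against 0 to 15.6 elsewhere. Htr4, which raises cyclic AMP, had a UMI in 123 neurons, 88 of them in the Mrgprd group at 36.7 CPM (30.4 to 43.9), against 0 to 9.28 in the other groups. Htr5a was seen in 40 neurons, Htr2a and Htr2c in 16 each and Htr6 in 3. Only Htr4 and Htr5b had enough UMIs for the fold. Htr5b was past the fold on the higher side in the Cd34 group (4.33% of all genes) and Htr4 in the Mrgprd group (5.29%), which Htr4 could enter only through its level there, with 37 UMIs in all other neurons. Both were lower in the Trpm8 group (15.8%). Htr4 alone was lower in the Nefh group (9.53%), the Calca/Trpv1 group (9.36%) and the leftover neurons with Calca (8.73%), and Htr5b alone in the leftover neurons with little Calca (2.44%). Neither was seen in the Nppb group, nor Htr5b in the Mrgpra3 group, and at the limit of 3 counts none of these passed the fold.

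The genes that make, carry and break down serotonin were mostly rare. Tph1 and Tph2, the rate-limiting enzymes of its synthesis, were seen in 2 and 44 neurons, and Slc6a4, the serotonin transporter, in 3. The vesicle transporters Slc18a1 and Slc18a2 were seen in 19 and 63. Maoa, which breaks serotonin down, was the abundant one, with a UMI in 985 neurons (25.6%) and 211 CPM (195 to 228) in the Cd34 group, the only group in which it passed the fold on the higher side. Maob was seen in 124 neurons and was 21.8 CPM (17.1 to 27.4) in the Nefh group. Ddc, the decarboxylase, was seen in 45 neurons, but at 97.6 CPM (69.7 to 133) in glia-like barcodes, and its highest neuronal level, 17.8 (13 to 23.7), was in the leftover neurons with little Calca, where the glia markers were also highest. Of these 8 genes 4 were tested. On the higher side Maob passed the fold in the Nefh group (5.59% of all genes), Maoa in the Cd34 group (4.33%), and Slc18a2 and Ddc in the leftover neurons with little Calca (6.12%), where Ddc entered only through that group, with 30 UMIs in all other neurons. In the Nppb group 3 passed it (Ddc, Slc18a2, Maob; 8.38%) and in the Mrgpra3 group 1 (Slc18a2; 7.67%), each from 2 to 5 UMIs. On the lower side 3 passed it in the Trpm8 group (Ddc, Slc18a2, Maoa; 15.8%) and 2 each in the Mrgprd group (Ddc, Maob; 17.9%), the Cd34 group (Ddc, Maob; 12.4%) and the Calca/Trpv1 group (Ddc, Maoa; 9.36%). Maob was not seen in the Mrgpra3 group (16.3%), and did not pass at the limit of 3 counts.

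Signalling partners of the receptors that couple to inhibitory G proteins were counted from a list of 18 genes for G protein subunits, adenylyl cyclases, inward rectifier potassium channels and RGS proteins, of which 16 were tested. In the Nefh group 4 were higher (Kcnj3, Adcy1, Adcy8, Adcy9; 5.59% of all genes) and 3 lower (9.53%), and in the Cd34 group 2 were higher (Kcnj6, Adcy1; 4.33%) and 5 lower (12.4%). Adcy8 and Kcnj6 entered only through these groups, with 37 and 23 UMIs in all other neurons. The lower genes were Gnao1, Kcnj6 and Adcy5 in the Nefh group, and Kcnj3, Adcy2, Adcy3, Adcy5 and Rgs7 in the Cd34 group. Thus only Adcy1 was higher in both, while Kcnj3 and Kcnj6 went opposite ways in them. Adcy1, a cyclase stimulated by calcium, was 41.5 CPM (34.9 to 49.0) in the Nefh group and 33.6 (27.5 to 40.7) in the Cd34 group, the groups where Htr1d was highest, against 4.31 (2.67 to 6.59) in the Calca/Trpv1 group. In the Calca/Trpv1 group 2 were higher (Adcy3, Adcy5; 5.46%) and 4 lower (Kcnj6, Adcy1, Adcy8, Rgs7; 9.36%), and in the Nppb group 1 was higher (Kcnj3; 8.38%) and 5 lower (14.7%), of which Adcy3 and Adcy9 had no UMI and did not pass at the limit of 3 counts. The Mrgprd group had most calls, 5 higher (Gnao1, Adcy5, Adcy6, Rgs4, Rgs7; 5.29%) and 6 lower (Gnai1, Kcnj6, Adcy1, Adcy2, Adcy3, Adcy8; 17.9%). The Trpm8 group had 1 higher (Adcy2; 3.78%) and 6 lower (15.8%), and the Mrgpra3 group 3 higher (Gnao1, Kcnj3, Rgs4; 7.67%) and 3 lower (16.3%). Kcnj3, a subunit of the potassium channel opened by these receptors, was 17.6 CPM (5.72 to 41.1) in the Nppb group, 19.4 (15.0 to 24.7) in the Nefh group and 5.54 (3.65 to 8.07) in the Calca/Trpv1 group. Gnao1, an inhibitory alpha subunit, was 2754 CPM in the Mrgpra3 group and 2323 in the Mrgprd group, against 1004 in the Calca/Trpv1 group and 554 in the Nefh group. Over the 16 genes the median log2 ratio was -0.31 in the Nefh group, -0.26 in the Calca/Trpv1 group and -0.34 in the Cd34 group. In the Nppb group it was -0.35, or 0.18 with the 4 genes not seen at their limits.

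The list of CGRP and migraine peptide genes and the list of itch genes were set beside the receptors. Of 5 tested CGRP and peptide genes, Calca, Calcb, Tac1, Adcyap1 and Calcrl all passed the fold on the higher side in the Calca/Trpv1 group (5.46% of all genes), where Calca was part of the rule and Calcrl, with 30 UMIs in all other neurons, entered only through that group. Calca, Calcb, Tac1 and Adcyap1, 4 of the 5, were lower in both the Nefh group (9.53% of all genes) and the Cd34 group (12.4%). Low levels of these peptides were found in other groups as well: in the Mrgprd group, with the lowest level of Htr1d, 3 of the 5 were lower (Calca, Tac1, Adcyap1; 17.9% of all genes). Of 8 tested itch genes, 6 were higher in the Nppb group (Nppb, which was part of the rule, Sst, Il31ra, Osmr, Cysltr2, Npy2r; 8.38% of all genes), where Htr1f and Htr1a were highest, and 2 were lower (Mrgpra3, Mrgprd; 14.7%). Cysltr2 entered only through that group, with 39 UMIs in all other neurons, and Mrgpra3 had no UMI, which the order of the rules sets, and did not pass at the limit of 3 counts. In the Mrgpra3 group 6 were also higher (7.67%) and 1 lower (Mrgprd; 16.3%), and of the 6 Mrgpra3 was part of the rule and Nppb came from 21 UMIs in 2 of 49 neurons.

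For each receptor, the genes highest in neurons with it against those without were ranked by the ratio of their CPM, over genes with at least 200 UMIs. For Htr1f these were Il31ra (a ratio of 53.7), Nppb (49.2), Sst (39.0), Osmr (15.4) and Arap2 (5.87). For Htr1d they were Rem2 (8.49), Baiap2l1 (6.03), Spp1 (6.03), Cbln2 (5.22) and Rasgrp2 (4.91), and for Htr7 Lypd1 (6.22), Baiap2l1 (6.06), Rab3b (5.54), Ntrk2 (4.94) and Tspan18 (4.29). Baiap2l1 was thus on both lists.

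For Htr1b they were Tac2 (8.09), Chp2 (5.91), S100a16 (5.51), Prokr2 (5.41) and Trappc3l (5.21). Htr3a had Tac2 (19.1), Htr3b (11.6), Gng8 (11.1), Chp2 (10.5) and Chodl (9.78), and Htr3b had Tac2 (11.8), Htr3a (7.43), Trappc3l (6.11), Gng8 (5.96) and Mctp1 (5.75). Tac2, which codes for neurokinin B, led all 3 lists, but it was seen in 38 neurons with 109 of its 203 UMIs in 1 of them. For Htr1a the list began with Oxt at a ratio of 1418, for which 232 of 234 UMIs lay in 1 neuron, followed by Il31ra (7.25), Ccl21a (5.14), Nppb (4.70) and Sst (4.65). Past a fold of 2, the share of all 12113 genes that was higher and that was lower in neurons with the receptor was 5% and 10.1% for Htr1f, 3.7% and 8.64% for Htr1d, and 4.24% and 9.43% for Htr7. It was 2.15% and 4.02% for Htr1b, 3.01% and 6.1% for Htr3a, 2.25% and 6.22% for Htr3b, and 3.98% and 8.87% for Htr1a.

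By profile over the 9 groups, the genes nearest to each receptor were given by Pearson's r of log2(CPM + 1), as a description over groups that share their libraries and differ in depth. Nearest to Htr1b were Abcg2 (0.97), D430036J16Rik (0.96), Spred1 (0.95), Ccdc109b (0.95) and Inf2 (0.93). Nearest to Htr1d were Frrs1l (0.96), Adcy1 (0.95), Dach1 (0.95), Hist1h2bc (0.94) and Plcb4 (0.94). Nearest to Htr1f were Jak1 (0.94), Lrrcc1 (0.91), Dhrs7b (0.91), Ddx28 (0.90) and Bpnt1 (0.90). Nearest to Htr7 were Elmo1 (0.96), Rem2 (0.94), Sytl2 (0.94), Cbln2 (0.93) and Zfp101 (0.93), of which Rem2 and Cbln2 also stood high in neurons with Htr1d. Nearest to Htr3a was Tmem229b (0.97), to Htr3b Vwa5b2 (0.95) and to Htr1a Gnas (0.95), the stimulatory G protein alpha subunit.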

How the data were processed

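The authors dissociated trigeminal ganglia, ran Dropseq and deposited 1 table of UMI counts per gene and barcode, without normalization, for barcodes with at least 1000 UMIs. The submitters' processing notes name bcl2fastq 2.17, STAR 2.5.3a, Seurat 1.4.0.16 and mm10, and the annotation and strand setting are not given in the sources used here. Barcodes had 1000 to 190815 UMIs (median 2031), 30491529 in all.

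Columns do not name the run, so the 9 runs were treated as 1 pooled sample. Analyses used Python 3.11.15, numpy 2.4.6, scipy 1.17.1 and pandas 2.3.3. Counts were summed over neurons and divided by all UMIs of those neurons. Intervals are 95% exact, and a count of 0 is given with an upper limit of 3 counts. Thinning drew 1000 UMIs without replacement, and every neuron had that many. Ratios of a group to all other neurons added 0.5 counts, and were checked on simulated data. Red cell-like barcodes had at least 20% haemoglobin UMIs, glia-like ones at least 3 glia markers, and both at most 1 of the neuronal genes. No doublet caller was run and no doublet was removed. Neurons that met more than 1 group rule were left out as an alternative. Named genes are the 8 receptors, listed pathway genes and, for each receptor seen in at least 50 neurons, the 5 highest by ratio and the 5 by correlation. The members and lists were chosen with earlier results of these data known. Gene positions are from GENCODE M21 (GRCm38).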

Additional observations from a re-analysis of the deposited data

How the results depend on the processing

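No paired analysis was possible because the columns carry no run, and for the same reason no replicate could be left out. The group with the highest level of each receptor was the same under every alternative that gave levels by group. Some alternatives could not change a leading level. The Nefh group and the leftover neurons with Calca held no neuron that met more than 1 rule, so leaving such neurons out changed only other groups. The limit of 20000 UMIs could not change the leftover neurons with Calca, whose deepest had 10993 UMIs. Requiring 900 genes, 4 neuronal genes or at most 20% mitochondrial UMIs moved none of the main values out of its interval, nor did leaving out barcodes that occur 2 times, end in N or lie 1 base from another (3408 neurons kept, chosen after seeing the data), although Htr1f in the Mrgpra3 group then had 3.37 CPM in place of 34.0. Without neurons that met more than 1 rule, Htr1f in the Nppb group was 217 CPM. Without neurons over 20000 UMIs, 9.17% of neurons had Htr1b, 3.76% Htr1d and 2.37% Htr3b, the Nefh group had 80.0 CPM of Htr3a and 20.7 of Htr3b, 29.0% of Htr1d neurons had Calca and 1.82% of Calca neurons had Htr1d. Thinned to 1000 UMIs, shares of neurons were 0.856% for Htr1a, Htr1d and Htr3b, 2.75% for Htr1b, 0.571% for Htr1f, 2.54% for Htr3a and 0.311% for Htr7. Calca was then found in 12.1% of Htr1d and 13.6% of Htr1f neurons, and 0.215%, 4.78% and 0.161% of Calca neurons had Htr1d, Htr1b and Htr1f. Requiring 2 UMIs of the receptor gave 0.674% for Htr1a, 2.28% for Htr1b, 1.19% for Htr1d, 0.571% for Htr1f, 3.74% for Htr3a, 0.986% for Htr3b and 0.233% for Htr7. Calca was then found in 56.5% of 46 Htr1d and 94.3% of 88 Htr1b neurons, and 1.11%, 3.53% and 0.298% of Calca neurons had Htr1d, Htr1b and Htr1f. The mean of the CPM of each neuron in the Nefh group was 77.7 for Htr3a and 20.1 for Htr3b. With Calca at 5 UMIs, 11.8% of Htr1d, 72.1% of Htr1b and 3.08% of Htr1f neurons had it, and 1.37%, 17.5% and 0.124% of Calca neurons had these receptors. With Calca at 0.1% of UMIs these were 10.2%, 71.4% and 3.08%, and 1.16%, 17% and 0.122%. Raised thresholds of the group rules moved none of the highest group levels. Depth limits the shares: most receptor neurons held 1 UMI, so a neuron without one may still express the gene.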
